A study of Mus musculus with 8 samples.

Results

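The RGS genes encode regulators of G protein signalling, and 10 of them were followed here in bone marrow–derived mast cells (BMMCs): Rgs1, Rgs2, Rgs3, Rgs10, Rgs11, Rgs13, Rgs14, Rgs16, Rgs18 and Rgs19. They were taken as the rows with these symbols, 10 of 24059 symbols counted, and 8 of the 10 passed the filter on low counts that left 14934 genes to be tested. The set was chosen by measured values, since results of these libraries were known when it was drawn up. Its levels and its differences between the RNPs are therefore given as a description, and nothing is supported with them or with the outcomes of the fit over all genes. Of the 10 genes, Rgs1 and Rgs2 had the highest levels per kb of transcript. Both were several-fold lower in replicate 1 than in the other replicates with both RNPs. Rgs10 and Rgs11 were lower after Zc3h12a RNPs in all 4 pairs of samples, beside 8.54% of all genes tested. Neither passed the thresholds of the main fit over all genes. Rgs3 and Rgs16 were near the floor of detection.

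BMMCs are mast cells that arise when bone marrow is cultured, here that of C57BL/6 mice whose age the labels do not give, with IL-3 for at least 4 wk. They received ribonucleoproteins (RNPs) of Cas9 with a non-targeting scrambled guide (4 samples, genotype labelled Zc3h12a WT) or with guides against Zc3h12a, the gene of the RNase Regnase-1 (4 samples, labelled Zc3h12a KO), and RNA was taken after another 1 wk without stimulation. The 8 samples came from BMMCs of 4 mice, and samples that share a replicate number were taken as a pair, although the labels do not say that a number marks a mouse. The edited cells were pools with several crRNAs, not clones, and the RNA was bulk. Total counts were 19610240 to 33986762 with scrambled RNPs and 23712029 to 28564062 with Zc3h12a RNPs. Zc3h12a itself was at 24.9 to 39.3 CPM (counts per 1e+06 of the TMM-normalized library) with scrambled RNPs and 26.8 to 41.1 CPM with Zc3h12a RNPs, so its RNA level does not check the labels.

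A G protein is switched on when a receptor loads its alpha subunit with GTP, and it switches off when the alpha subunit hydrolyses that GTP. RGS proteins bind the active alpha subunit and speed up this hydrolysis, which shortens the signal of receptors for chemokines, adenosine, prostaglandins and similar ligands. The family is divided by sequence. R4 proteins are mostly small and act on Gi and Gq (Rgs1, Rgs2, Rgs3, Rgs13, Rgs16 and Rgs18). R7 proteins work as dimers with the G beta 5 subunit (Rgs11). The other groups here are R12 proteins (Rgs10 and Rgs14) and RZ proteins (Rgs19). In mast cells the family is known for limiting responses to receptor ligands and to IgE.

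Of the 6 R4 genes, 4 lie next to each other on the minus strand of chromosome 1, in the order Rgs2 (chr1:143875076-143879899), Rgs13 (chr1:144014392-144053110), Rgs1 (chr1:144118034-144124980) and Rgs18 (chr1:144628291-144651189), within 776 kb in GRCm39. Rgs21 is the only other RGS gene between them and had 0 or 1 count in each sample. Rgs16 lies at chr1:153616091-153621228 on the plus strand, and the remaining members are on other chromosomes. The promoters of the 3 abundant genes of the cluster, Rgs2, Rgs1 and Rgs18, are printed because the genes are neighbours on 1 strand while their CpG content is far apart. Each line holds the 250 bases before the start of the canonical GENCODE transcript, read 5′ to 3′ on the minus strand of GRCm39, with CG dinucleotides in capitals. They are chr1:143879900-143880149 for Rgs2, chr1:144124981-144125230 for Rgs1 and chr1:144651190-144651439 for Rgs18.
Rgs2: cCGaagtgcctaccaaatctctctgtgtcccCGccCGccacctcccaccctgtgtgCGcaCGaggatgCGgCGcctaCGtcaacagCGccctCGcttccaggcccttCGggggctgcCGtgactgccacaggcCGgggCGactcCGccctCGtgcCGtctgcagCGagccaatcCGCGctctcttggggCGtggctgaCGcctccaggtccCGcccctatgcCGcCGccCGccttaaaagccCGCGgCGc
Rgs1: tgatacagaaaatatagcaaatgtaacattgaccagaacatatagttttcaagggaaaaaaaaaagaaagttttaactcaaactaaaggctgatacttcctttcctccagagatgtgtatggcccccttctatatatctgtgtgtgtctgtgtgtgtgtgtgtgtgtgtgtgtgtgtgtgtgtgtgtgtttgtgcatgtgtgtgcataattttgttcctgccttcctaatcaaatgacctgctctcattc
Rgs18: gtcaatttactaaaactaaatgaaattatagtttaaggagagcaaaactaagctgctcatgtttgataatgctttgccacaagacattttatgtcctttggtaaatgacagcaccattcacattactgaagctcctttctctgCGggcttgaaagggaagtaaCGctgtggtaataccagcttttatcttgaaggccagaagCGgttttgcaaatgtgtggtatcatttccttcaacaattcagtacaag

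The Rgs2 promoter held 29 CG dinucleotides and 71.2% G or C. Rgs1 had 0 CG dinucleotides, Rgs13 had 1 and Rgs18 had 3, at 38.4%, 38.0% and 38.0% G or C. Over the promoters of 17419 protein-coding genes in the files, the median was 10 CG dinucleotides and 55.2% G or C, 21.2% of promoters had at most 3 CG dinucleotides and 5.28% had at least 29. The Rgs2 promoter thus stood at the CpG-rich end and its neighbours at the CpG-poor end. Elsewhere, Rgs19 had 27, Rgs10 19, Rgs16 15, Rgs11 9, Rgs14 6 and Rgs3 4 CG dinucleotides. Of the motifs searched on both strands, TGACG, the core of the cAMP response element, occurred 2 times in the Rgs2 promoter and in 20.1% of all promoters. The GATA site AGATAA occurred in those of Rgs13 and Rgs18, and in 8.38% of all. The TATA box TATAAA was found in Rgs3 (9.35% of all promoters) and the E-box CAGGTG in Rgs10 (17.8%). The whole element TGACGTCA, the AP-1 site TGANTCA, the EGR site GCGTGGGCG and the NF-kappaB site were not in these windows for any of the 10 genes, against 1.76%, 5.66%, 0.637% and 4.58% of all promoters. A match of letters is a description and not a binding site.

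Levels between genes were compared as CPM per kb of the canonical transcript, since longer transcripts give more reads. In scrambled RNP samples the order was Rgs1 at 196 ± 96.3 (mean ± SD, n = 4), Rgs2 at 193 ± 136, Rgs18 at 98.9 ± 12.05 and Rgs10 at 81.7 ± 12.1 CPM per kb. Rgs19 followed at 26.1 ± 2.78, Rgs14 at 9.71 ± 1.85, Rgs13 at 4.39 ± 1.58 and Rgs11 at 2.04 ± 3.57 CPM per kb. Rgs16 was at 0.125 ± 0.147 and Rgs3 at 0.00865 ± 0.0116 CPM per kb. Among 14384 tested genes with a transcript length, Rgs1 ranked 282, Rgs2 287, Rgs18 575 and Rgs10 711, while the median gene was at 4.74 CPM per kb and Rgs13 fell below it. The ranges of the 4 scrambled RNP samples overlapped between Rgs1 and Rgs2, Rgs2 and Rgs18, Rgs18 and Rgs10, Rgs13 and Rgs11, and Rgs11 and Rgs16. Within samples, Rgs1 exceeded Rgs2 in 2 of 4, Rgs2 exceeded Rgs18, Rgs18 exceeded Rgs10 and Rgs13 exceeded Rgs11 in 3 of 4, and Rgs11 exceeded Rgs16 in 4 of 4. The Rgs11 mean rested on scrambled RNP replicate 4, at 7.39 CPM per kb against 0.198 to 0.282 in the other 3. Rgs10 and Rgs19, Rgs19 and Rgs14, Rgs14 and Rgs13, and Rgs16 and Rgs3 did not overlap. With the length of all annotated exons together, a choice made after the data were seen, Rgs2 was at 161 and Rgs1 at 108 CPM per kb.

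**Figure D1:**
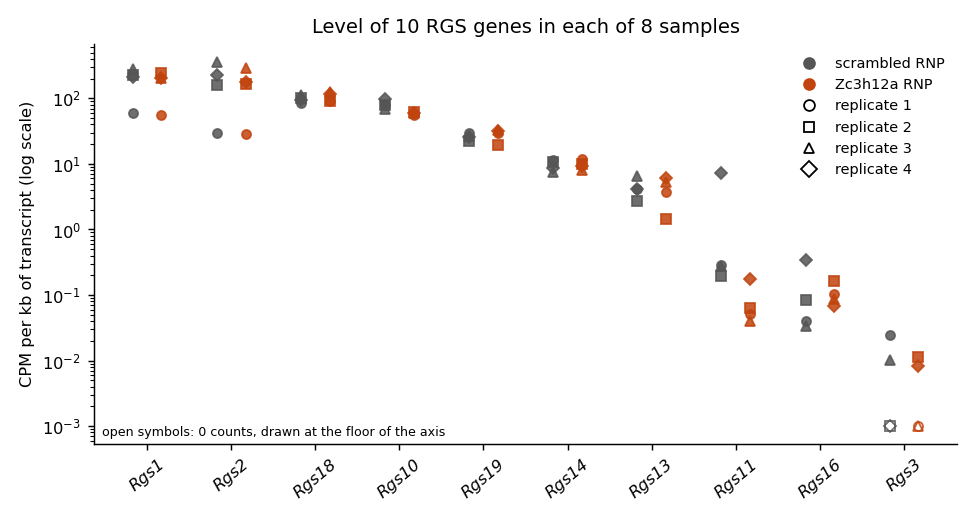
CPM per kb of canonical transcript (log axis) for the 10 RGS genes in each of 8 samples, with colour for the RNP and symbol shape for the replicate number. Rgs1 and Rgs2 of replicate 1 sit below the other replicates with both RNPs, Rgs11 of scrambled RNP replicate 4 stands above the other 7 samples, and samples with 0 counts of Rgs3 are open symbols at the floor.

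Rgs1, which limits chemokine receptor signalling in lymphocytes, was at 227, 862, 1097 and 819 CPM in scrambled RNP replicates 1 to 4. After Zc3h12a RNPs it was at 212, 933, 795 and 796 CPM in the same order. Replicate 1 was low with both RNPs, the other 6 samples lay between 795 and 1097 CPM, and the groups overlapped. The log2 fold change of Zc3h12a RNP over scrambled RNP was -0.12 (SE 0.11), lower in 3 of 4 pairs, whereas the means of the replicate numbers spanned 2.09 on the log2 scale.

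Rgs2, an R4 protein with a preference for Gq, was at 88.4, 491, 1079 and 678 CPM in scrambled RNP samples. In Zc3h12a RNP samples it was at 85.9, 500.2, 884 and 547 CPM. It was thus lowest in replicate 1 and highest in replicate 3 with both RNPs, a 12.2-fold range among scrambled RNP samples and a 10.3-fold range among Zc3h12a RNP samples, and the groups overlapped. Its log2 fold change was -0.15 (SE 0.09), lower in 3 of 4 pairs. The replicate numbers spanned 3.49 on the log2 scale and the largest difference within a pair was 0.31. In bulk RNA, fewer cells that express a gene and less of its RNA per cell cannot be told apart.

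Rgs1 and Rgs2 together made up 44.1% of the summed CPM of the 10 members in scrambled RNP replicate 1 and 43.7% in Zc3h12a RNP replicate 1. In the other 6 samples they made up 75.4% to 83.7%. The sum over the members was 715 to 2599 CPM with scrambled RNPs and 683 to 2124 CPM with Zc3h12a RNPs, both lowest in replicate 1. A list of 15 immediate early genes, which are transcribed within minutes of a stimulus, was also lowest in replicate 1. Its summed level was 3785, 14488, 33942 and 21347 CPM in scrambled RNP replicates 1 to 4, and 3920, 14143, 23968 and 19973 CPM in Zc3h12a RNP replicates. It was highest in replicate 3 with both RNPs, as was Rgs2, and its part in the levels of Rgs1 and Rgs2 was not tested. Egr1, the list's highest gene, was at 6662 ± 4674 CPM with scrambled RNPs and 5249 ± 2997 with Zc3h12a RNPs. Egr1 was highest in replicate 3 with both RNPs. Fos, a gene of the list named after its values were seen, was highest in replicate 4 with both, at 1185 and 1326 CPM.

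**Figure D2:**
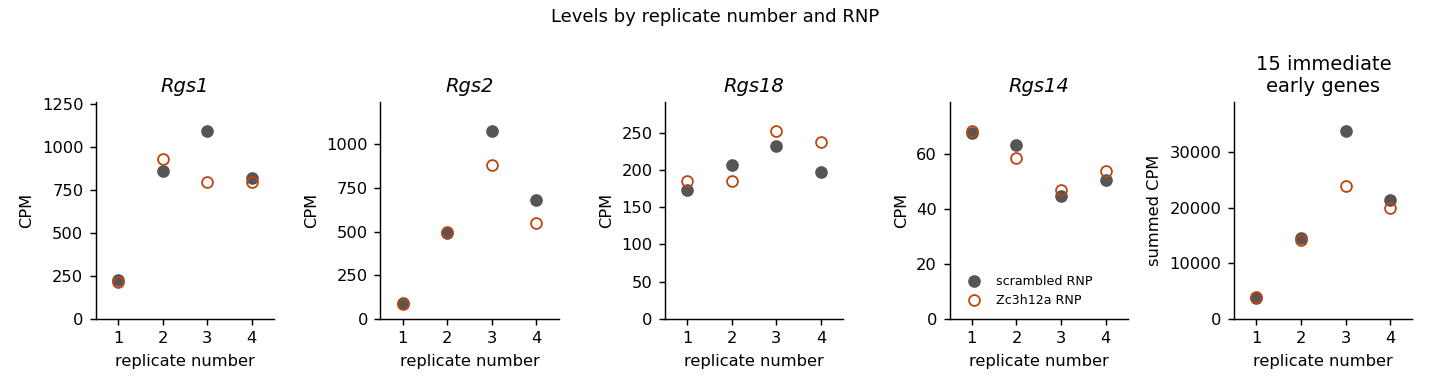
CPM of Rgs1, Rgs2, Rgs18 and Rgs14, and the summed CPM of 15 immediate early genes, by replicate number, with filled points for scrambled RNPs and open points for Zc3h12a RNPs. Rgs1, Rgs2 and the immediate early genes are lowest in replicate 1, and Rgs14 is highest there with both RNPs.

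The genes with the pattern most like each member were found as those with the smallest root mean square difference of centred log2 CPM over the 8 samples. For Rgs1 these were Ier2, an immediate early gene (0.20), and Osm, a cytokine gene (0.27), against a median of 0.94 over 8659 genes. For Rgs2 they were Ccrl2 (0.25) and Csrnp1 (0.30), against a median of 1.38. The points share libraries and the same low replicate, so the likeness is a description only. Rgs18 was nearest to Klhl5 and Slbp (both 0.06), Rgs13 to Taf6l (0.19) and Lrrc20 (0.21), Rgs10 to Asb2 and Ctsf (both 0.12), Rgs14 to Araf (0.05) and Relt (0.06), and Rgs19 to Zdhhc6 and Med19 (both 0.06).

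Rgs18, an R4 protein of blood cells best known from platelets, was at 173, 207, 232 and 197 CPM in scrambled RNP replicates 1 to 4. In Zc3h12a RNP samples it was at 185, 186, 253 and 238 CPM. It was also lowest in replicate 1 and highest in replicate 3, but over a 1.34-fold range among scrambled RNP samples. Its log2 fold change was 0.08 (SE 0.09), higher in 3 of 4 pairs, with overlapping groups. In replicate 1 it exceeded Rgs1 and Rgs2 per kb, at 84.5 CPM per kb against 59.2 and 29.3 with scrambled RNPs, whereas it lay below both in scrambled RNP replicates 2, 3 and 4.

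Rgs13, which is known to restrain IgE receptor signalling in mast cells, was at 6.47, 4.26, 10.2 and 6.52 CPM in scrambled RNP samples. It was at 5.93, 2.30, 8.39 and 9.45 CPM in Zc3h12a RNP samples. These values rest on 53 to 291 counts per sample. Replicate 2 was lowest with both RNPs, and replicate 4 was the only pair with more in the Zc3h12a RNP sample. The log2 fold change was -0.18 (SE 0.25), and it turned to 0.10 without replicate 2.

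Rgs16, which acts on Gi and Gq, had 3, 6, 2 and 17 counts in scrambled RNP replicates 1 to 4 and 7, 9, 5 and 5 in Zc3h12a RNP replicates. Rgs3, whose protein also binds G beta gamma, had 3, 0, 1 and 0 counts, and 0, 1, 0 and 1. Both were removed by the filter on low counts and no fold is given for either. A count of 0 allows a level of up to 0.143 CPM in the shallowest library, taken as 3 counts, which covers counting error only.

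Rgs10, the smallest R12 protein and one that acts on Gi, was at 97.4, 99.7, 86.4 and 122 CPM in scrambled RNP replicates 1 to 4. In Zc3h12a RNP samples it was at 69.8, 76.3, 74.9 and 75.6 CPM. Every Zc3h12a RNP sample lay below every scrambled RNP sample, where 0.924% of all genes tested had groups that did not overlap. The differences within pairs were -0.48, -0.39, -0.21 and -0.69 on the log2 scale. The fitted log2 fold change was -0.44 (SE 0.10). Its counts, 1761 to 3073 per sample, were far above the floor. In contrast to Rgs1 and Rgs2, the means of its replicate numbers spanned 0.26 on the log2 scale, less than the largest difference within a pair.

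Rgs14, an R12 protein that carries a GoLoco motif and domains that bind Ras proteins, was at 67.8, 63.2, 44.6 and 50.7 CPM in scrambled RNP samples. In Zc3h12a RNP samples it was at 68.6, 58.6, 46.8 and 53.9 CPM. It was highest in replicate 1 and lowest in replicate 3, the reverse of Rgs2. The largest difference within a pair was 0.11 on the log2 scale, the smallest of the 8 members tested, and the log2 fold change was 0.02 (SE 0.08).

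Rgs19, the RZ member, which binds G alpha i subunits, was at 54.0, 41.5, 49.1 and 48.0 CPM in scrambled RNP samples. It was at 54.7, 35.6, 61.6 and 59.7 CPM in Zc3h12a RNP samples. Replicates 3 and 4 were higher after Zc3h12a RNPs, replicate 2 was lower, and the groups overlapped. The log2 fold change was 0.11 (SE 0.11).

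Rgs11, an R7 protein known from retinal bipolar cells, was at 0.571, 0.400, 0.551 and 14.9 CPM in scrambled RNP replicates 1 to 4. In Zc3h12a RNP samples it was at 0.104, 0.130, 0.0822 and 0.357 CPM. Scrambled RNP replicate 4 stood apart from all other samples with 314 counts, and the other scrambled RNP samples had 12 to 18 counts against 2 to 11 in the Zc3h12a RNP samples. The groups did not overlap, beside 0.924% of all genes tested. The differences within pairs were -1.85, -1.21, -1.998 and -5.12 on the log2 scale. The ratio of scrambled RNP to Zc3h12a RNP, with its exact 95% interval for counting error, was 5.49 (1.60 to 29.1) in pair 1, 3.08 (0.830 to 16.98) in pair 2, 6.70 (1.54 to 60.8) in pair 3 and 41.8 (23.1 to 84.7) in pair 4. The interval of pair 2 holds a ratio of 1. The fitted log2 fold change was -3.20 (SE 0.74). Without replicate 1 or without replicate 4 the gene did not pass the filter on low counts and has no fitted value. Without replicate 2 it was at -3.98 (SE 0.62) and past the thresholds.

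The genes nearest to Rgs11 in pattern were Aldoc and Pdk1, both of glucose metabolism, at root mean square differences of 1.21 and 1.26 against a median of 2.03 over 8660 genes. Aldoc was at 45.6, 32.7, 40.01 and 139 CPM with scrambled RNPs and 28.3, 19.9, 24.1 and 44.2 CPM with Zc3h12a RNPs. Pdk1 was at 10.8, 8.53, 13.98 and 58.8 CPM, and 8.56, 11.7, 11.9 and 9.38 CPM. Both were highest in scrambled RNP replicate 4, the sample that also stood apart for Rgs11, and the part of that library in the difference of Rgs11 was not tested.

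**Figure D3:**
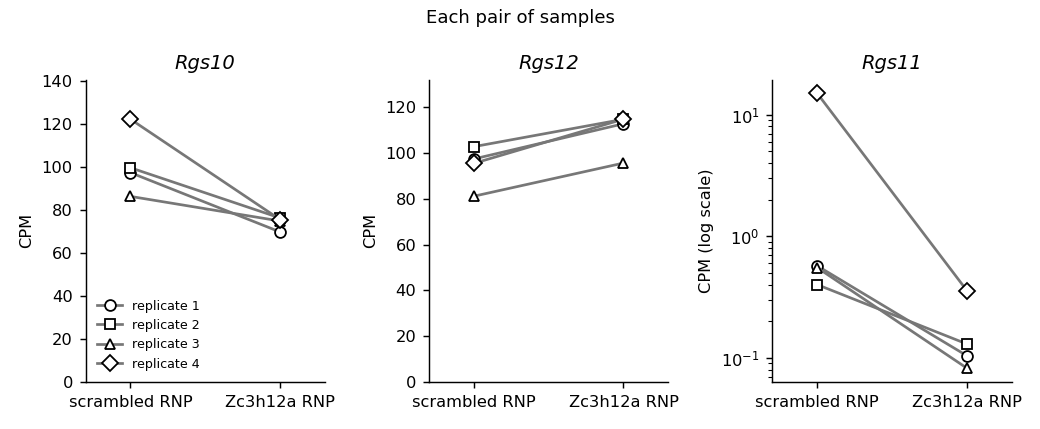
CPM of Rgs10, Rgs12 and Rgs11 in each of the 4 pairs of samples, joined by lines from scrambled RNP to Zc3h12a RNP, with a log axis for Rgs11. Rgs10 and Rgs11 are lower and Rgs12 is higher in the Zc3h12a RNP sample of all 4 pairs, and Rgs11 of scrambled RNP replicate 4 is at 14.9 CPM against 0.571 or less elsewhere.

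Side by side, 3 of the 8 members tested had a positive and 5 a negative log2 fold change, with a median of -0.14, where the median over all 14934 genes was 0.04 and 57.8% were positive. None passed an adjusted p of 0.05 with a log2 fold change beyond 0.5 in edgeR's quasi-likelihood test, and neither did any other gene (0% of genes tested). None of the 8 members did in DESeq2, which called 60 genes in all but gave Rgs11 no adjusted p and so could not call it, or in limma-trend, which called 1. At an unadjusted p of 0.05 with the same fold, 1 member was past it, Rgs11, beside 0.87% of all genes (130). Without replicate 2 the adjusted count of members was 1 (Rgs11), and the unadjusted count was 0 without replicate 1 or replicate 4 and 2 (Rgs10 and Rgs11) without replicate 3. Rgs11 passed the low-count filter through the scrambled RNP samples, where it was high, so its outcome is no support for a difference. Of the 8, 2 were lower in all 4 pairs (Rgs10 and Rgs11), beside 8.54% of all genes, and none was higher in all 4, beside 4.98%. The same 2 had groups that did not overlap, beside 0.924% of all genes. The members were picked with this contrast known, so nothing is read from these shares. For Rgs1, Rgs2, Rgs18, Rgs13, Rgs14 and Rgs19 the replicate numbers spanned more than the largest difference within a pair, and for Rgs10 and Rgs11 less.

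**Figure D4:**
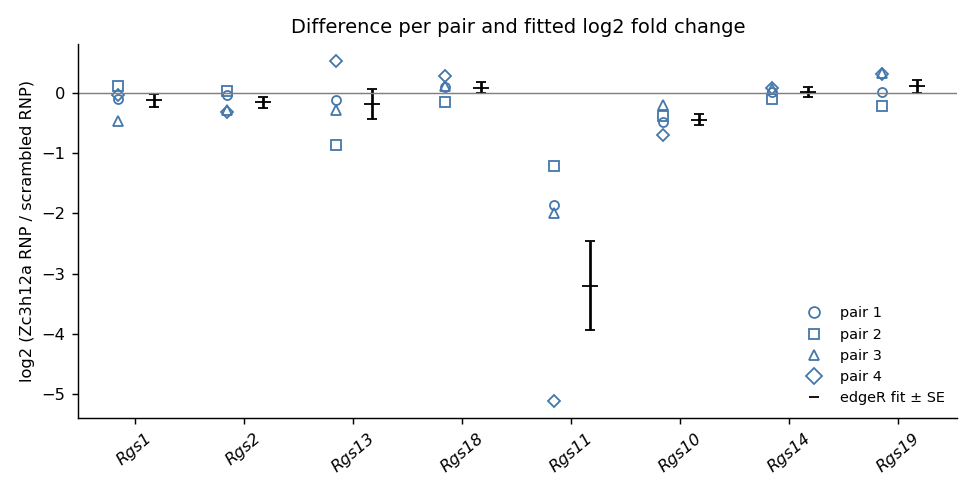
Difference of log2 CPM between Zc3h12a RNP and scrambled RNP in each pair (blue symbols) and the fitted log2 fold change with its standard error (black bars) for the 8 RGS genes tested. Rgs10 and Rgs11 lie below 0 in all 4 pairs, and pairs of the other genes lie on both sides of 0.

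The other RGS genes form a list of 13, of which 12 were in the files and 9 passed the filter on low counts. None of the 9 passed the thresholds in edgeR, DESeq2 or limma-trend, or at an unadjusted p of 0.05 with the same fold in edgeR, 7 had a positive log2 fold change and the median was 0.21. Rgs12, a long R12 protein, was the highest of them at 94.3 ± 9.25 CPM with scrambled RNPs and 110 ± 9.30 with Zc3h12a RNPs (mean ± SD, n = 4). All 4 pairs were higher, beside 4.98% of all genes tested, and the log2 fold change of 0.22 (SE 0.07) did not pass the test (edgeR adjusted p = 0.686). Among the R12 genes, Rgs10 was lower and Rgs12 higher in every pair, neither past the thresholds, and Rgs14 differed by at most 0.11 within a pair. Rgs9, an R7 gene of the retina and striatum, was at 75.3 ± 7.67 and 73.0 ± 11.2 CPM, a log2 fold change of -0.05 (SE 0.08). Per kb, Rgs9 was at 30.0 CPM in scrambled RNP samples against 2.04 for Rgs11, so it was the more abundant R7 transcript. Rgs7bp, which anchors R7 proteins at the membrane, was at 14.2 CPM with both RNPs. Gnb5, the G beta subunit that R7 proteins need and a gene named after its values were seen, was at 0.986 ± 0.404 CPM with scrambled RNPs and 1.12 ± 0.237 with Zc3h12a RNPs, a log2 fold change of 0.27 (SE 0.48). Rgs6, Rgs7, Rgs8, Rgs17, Rgs22 and Rgs9bp had means of 0.455 to 3.15 CPM and log2 fold changes of -0.26 to 0.64, each smaller than its SE.

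The proteins that RGS proteins act with were followed as lists. No gene of the lists of G protein subunits, RGS-type domains, chaperones, receptors or effectors passed the thresholds in edgeR, DESeq2 or limma-trend, or at an unadjusted p of 0.05 with the same fold in edgeR. The G alpha i, o and z subunits had 7 genes tested, 5 positive and 2 negative with a median of 0.50. The genes at or above that median, Gnai1, Gnat1, Gnat2 and Gnat3, were named after their values were seen and had means of 0.562 to 1.47 CPM. The highest gene, Gnai2, was at 737 ± 112 CPM with scrambled RNPs and 678 ± 101 with Zc3h12a RNPs, a log2 fold change of -0.12 (SE 0.12). The 4 genes of the G alpha q family had a median of 0.07, with Gna14 the highest at 71.5 ± 10.7 and 74.9 ± 6.94 CPM. The 4 genes of the G alpha s and G alpha 12 families had a median of -0.06, with Gnas the highest at 815 ± 145 and 776 ± 52.2 CPM. Gnaq, the gene of the Gq subunit itself, was named after its values were seen and was at 1.84 ± 1.63 and 1.59 ± 0.582 CPM. Of the G beta subunits 3 were positive and 2 negative (Gnb1 at 386 ± 92.5 and 373 ± 38.7 CPM), and of the G gamma subunits 4 and 4 (Gng2 at 82.7 ± 14.8 and 76.6 ± 5.16 CPM). Other proteins with an RGS-type domain had 14 genes tested and a median of 0.00, and Grk2, a receptor kinase, was at 302 CPM with both RNPs. Of the G alpha chaperones and GoLoco proteins 3 were positive and 3 negative, and Gpsm3, which holds G alpha i in its GDP form, was at 176 ± 22.5 and 140 ± 24.2 CPM, lower in 3 of 4 pairs (log2 fold change -0.34, SE 0.13, edgeR adjusted p = 0.744).

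Of 45 G protein-coupled receptors listed for mast cells, 33 were tested, 18 positive and 15 negative with a median of 0.11. F2r, the thrombin receptor, was the highest at 1815 ± 481 CPM with scrambled RNPs and 1622 ± 287 with Zc3h12a RNPs. Of the 33, 4 were lower in all 4 pairs, beside 8.54% of all genes, and they were named after their values were seen: Ptger3, a prostaglandin E2 receptor, with a log2 fold change of -0.40 (SE 0.09), the adenosine receptors Adora2a (-0.43, SE 0.11) and Adora2b (-0.31, SE 0.10), and the lysophosphatidic acid receptor Lpar1 (-0.23, SE 0.10). Their edgeR adjusted p-values were 0.424, 0.512, 0.656 and 0.819. Another 3, named in the same way, were higher in all 4 pairs, beside 4.98% of all genes: C3ar1, Hrh2 and P2ry1, at log2 fold changes of 0.33, 0.27 and 0.12. Adora3, the highest adenosine receptor listed at 393 ± 133 and 358 ± 86.2 CPM, was lower in 2 of 4 pairs (-0.10, SE 0.10). Ptger4, another prostaglandin E2 receptor, was higher in 3 of 4 pairs (0.13, SE 0.09). Both were also named after their values were seen. As background, Ptger3 couples to Gi, and Adora2a and Adora2b couple to Gs. Of the effectors of G proteins, 18 were tested, 5 positive and 13 negative with a median of -0.04, and Prkar1a, the regulatory subunit of protein kinase A, was at 534 ± 99.2 and 485 ± 92.3 CPM. Of the 15 immediate early genes, 7 were positive and 8 negative with a median of -0.02. Dusp1, a phosphatase of MAP kinases, and Nr4a3, a nuclear receptor, were past an unadjusted p of 0.05 and the fold threshold at log2 fold changes of -0.69 (SE 0.12) and -0.75 (SE 0.21), with edgeR adjusted p-values of 0.401 and 0.575. Both passed the thresholds in DESeq2 and neither in limma-trend.

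Markers were checked because several members are used by other blood cells. The mast cell list (13 of 14 genes in the files) summed to 55573 to 65564 CPM with scrambled RNPs and 53338 to 56559 CPM with Zc3h12a RNPs, with Cpa3, a mast cell protease, at 31172 ± 3611 and 27808 ± 1791 CPM. Of its 12 genes tested 10 were negative, and Hdc, the enzyme that makes histamine, had a log2 fold change of -0.75 (SE 0.22, edgeR adjusted p = 0.645, past the thresholds in DESeq2). B cells are rich in Rgs1 and Rgs13, and the B cell list summed to 3.73 to 13.9 and 2.84 to 5.32 CPM, with Ms4a1 and Cd22 at 0 or 1 count in each sample and Ighm at 5.94 ± 3.60 and 2.50 ± 1.35 CPM (log2 fold change -1.24, SE 0.28, edgeR adjusted p = 0.449, past the thresholds in DESeq2). Platelets and megakaryocytes are rich in Rgs18 and Rgs10. Their list summed to 2194 to 2576 and 1857 to 2449 CPM, with Itga2b, an integrin that mast cells also carry, the highest at 1675 ± 359 and 1595 ± 257 CPM. Of its other genes, named after their values were seen, the platelet glycoprotein genes Gp1ba and Gp5 were at 679 ± 261 and 513 ± 61.6 CPM and at 56.8 ± 10.96 and 71.6 ± 12.1 CPM, while Pf4 was at 0.167 to 2.90 CPM and Gp9 at 0.354 to 0.946 CPM. The part of such cells in the levels of Rgs18 and Rgs10 was not tested. The macrophage list summed to 13.2 to 20.8 and 15.8 to 20.1 CPM with Cd68 highest. The basophil list summed to 501 to 542 and 445 to 511 CPM. Nearly all of that sum was Cd200r3, at 511 ± 17.4 and 476 ± 28.3 CPM, and the other basophil genes in the files were far below it. The T and NK cell list summed to 0.6997 to 5.90 and 2.77 to 5.22 CPM, and the erythroid list to 5.20 to 7.80 and 3.42 to 6.62 CPM. The neutrophil list, with 3 of 8 genes in the files, summed to 0.0634 to 0.333 and 0.123 to 0.312 CPM.

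Regnase-1 cleaves RNA at stem-loops in 3′ UTRs, and AU-rich elements in the same place mark short-lived transcripts, so the canonical 3′ UTRs of the members were searched for both as a description. The AU-rich pentamer ATTTA occurred 10 times in Rgs1, 5 times each in Rgs2 and Rgs18, 4 times each in Rgs13, Rgs14 and Rgs16, 2 times in Rgs3, 1 time in Rgs19, and 0 times in Rgs10 and Rgs11. Per kb of 3′ UTR this came to 4.71 in Rgs13, 4.42 in Rgs18, 3.32 in Rgs1, 2.58 in Rgs3 and 2.45 in Rgs16. It was 2.13 in Rgs2, 1.45 in Rgs19 and 1.02 in Rgs14. The median was 1.37 over 13197 genes, of which 72.9% held the pentamer. The R4 genes, Rgs14 and Rgs19 held ATTTA. Rgs10, with a 3′ UTR of 278 bases, and Rgs11, with 592, were the members without it. A hairpin with a stem of 6 bases and a loop of 3 bases, pyrimidine, purine and pyrimidine, was found in Rgs11 alone among the 10, 1 time, and in 10.7% of all 3′ UTRs. Rgs10 had none. The search reads letters, not folds, and says nothing of cleavage.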

How the data were processed

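RNA of 8 BMMC samples was sequenced as poly(A) libraries. The authors aligned reads to GRCm39 with HISAT2 2.2.1 and deposited raw counts per gene from featureCounts 2.0.1 (quality control: FastQC 0.11.9). The strand setting and the handling of reads with several matches are not given in the sources used here, so reads of overlapping genes could not be separated. From the deposited counts, with no pooling, edgeR 4.0.16 in R 4.3.3 (TMM, filterByExpr, quasi-likelihood test) was fitted over all genes with the replicate number as a block. Calls needed an adjusted p (Benjamini-Hochberg) of 0.05 or less and a log2 fold change beyond 0.5, and standard errors were derived from the fold change and the F statistic. CPM used TMM factors, with a prior count of 2 on the log2 scale. The fit was tested on simulated data with known changes before it was used. The simulation gave all genes the same spread beyond counting error and no effect of the replicate number, unlike these data. It checks the code and not how many changes the fit could find here.

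The series' design text names 4 mice for the 8 samples but does not say that the cells of each mouse received both RNPs. The pairing by replicate number is therefore an assumption. After subtraction of group means, samples with the same number correlated at 0.595, 0.0752, 0.624 and 0.0414 over all genes tested, where samples of different numbers reached 0.398, above pairs 2 and 4, and at 0.756, 0.717, 0.728 and 0.719 over 9668 genes with a mean log2 CPM above 2, where samples of different numbers had at most 0.137. Replicates of a group differed beyond sampling noise (chi-square per degree of freedom of at least 59.2). P-values of the fits with the replicate block measure the spread left after the replicate number is fitted, not the whole spread between these samples.

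The members, lists and sequence motifs were chosen with earlier results of these data known. Named are all 10 members, the other RGS genes past the filter, the highest gene of each other list and those with an unadjusted p at or under 0.05 and a fold beyond the threshold (at most 4 a list), and for each member tested the 2 genes nearest in pattern with a mean log2 CPM of at least 3. Alternatives were DESeq2 1.42.0, limma-trend (limma 3.58.1), no block, other normalizations, other filters and leaving out each replicate. Positions, lengths, promoters and 3′ UTRs come from GENCODE's annotation of GRCm39, and lengths were found for 14384 of the genes tested. Figures were drawn with matplotlib 3.10.9. Rgs4 and the other list genes without a row were not analysed here, and the value of 1 marker gene with a row is not reported. No protein sequences were used here.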

Additional observations from a re-analysis of the deposited data

Results flagged for a closer look

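Within each group of 4 samples, the highest or lowest sample was set against the others by Dixon's ratio, the gap to the nearest sample over the whole range (95% critical value 0.829), for the members and the other RGS genes tested. Of 34 groups examined, 2 had a sample apart, where 1.7 would be so by chance. Rgs11 in scrambled RNP replicate 4 was at 14.9 CPM with the next sample at 0.571 CPM, a ratio of 0.988. Rgs12 in Zc3h12a RNP replicate 3 was the lowest at 95.7 CPM, with the other 3 between 113 and 115 CPM, a ratio of 0.895. Rgs12 was lowest in replicate 3 with scrambled RNPs too, at 81.2 CPM.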

How the results depend on the processing

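None of the RGS members passed the thresholds with DESeq2, which gave Rgs11 no adjusted p, limma-trend, RLE or upper quartile normalization, or no replicate block, or where every sample had to reach 10 counts. Without a low-count filter the count was 1 (Rgs11), and it was 0 to 1 over fits that left out each replicate, with Rgs11 past the thresholds without replicate 2. The count at an unadjusted p was 1, and it was 0 where every sample had to reach 10 counts and Rgs11 was not tested, and 0 to 2 over fits without each replicate: 0 without replicate 1 or replicate 4, and 2 (Rgs10 and Rgs11) without replicate 3. Without replicate 1 or 4, Rgs11 did not pass the filter. The fit without the replicate block gave 0 and 1 for these counts, and its standard errors were larger for Rgs1 (0.48 against 0.11) and Rgs2 (0.69 against 0.09). Over all genes the count of calls was 0, and 60 with DESeq2, 40 with no low-count filter, 137 without replicate 2, and 0 to 3 in the other fits. Of 85 alternative log2 fold changes of members, 84 moved by less than the SD of the differences within pairs and 79 kept their sign. The sign changed for Rgs14 (-0.05 to 0.12), Rgs13 (-0.41 to 0.10) and Rgs19 (-0.01 to 0.28). Rgs10 stayed between -0.57 and -0.36 and Rgs11 between -4.54 and -2.55, with DESeq2 placing Rgs10 at an adjusted p of 0.0199 and a log2 fold change of -0.46, within the fold threshold, and other alternatives at 0.243 to 1. With the length of all annotated exons, levels per kb moved to 84.0 for Rgs18, 45.5 for Rgs10, 16.95 for Rgs19 and 6.47 for Rgs14, beyond 1 SD, and within 1 SD to 0.801 for Rgs11 and 0.0031 for Rgs3. Depth limits Rgs3, Rgs16 and Rgs11, which had fewer than 20 counts in most samples.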
